A study of Mus musculus with 22 samples.

Results

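Tnf and 9 genes of the NF-kB system were followed through microglia, the resident macrophages of the brain: the subunit genes Rela, Rel, Relb, Nfkb1 and Nfkb2, and the inhibitor or regulator genes Nfkbia, Nfkbiz, Bcl3 and Tnfaip3. They were taken by symbol from a table of 54532 genes, all 10 were found, and all 10 were among the 16554 genes with enough reads to test. The microglia had been sorted as live CD45mid, CD11b+ and CD11a- cells from brains of male C57BL/6J mice, and polyadenylated RNA was counted per gene in 22 libraries of 28676930 to 40458326 counts. The study asked how an early exposure to Gulf War chemicals and a later course of cannabidiol (CBD) bear on the response of aged microglia to lipopolysaccharide (LPS), a component of the outer membrane of bacteria.

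Gulf War (GW) mice had been injected from 10 weeks of age, daily for 10 days, with pyridostigmine bromide at 0.7 mg/kg, an acetylcholinesterase inhibitor, and permethrin at 200 mg/kg, a pyrethroid insecticide, whereas Ctrl mice received vehicle over the same days. All groups were aged to 17.5 months. CBD, at 30 mg/kg, was injected daily for 28 days and then once every 2 days for 2 weeks, and the mice outside the CBD arm received its vehicle. LPS at 0.33 mg/kg, or phosphate-buffered saline (PBS), was injected once, and brains were taken 24 hours later. The groups were Ctrl-PBS (n = 4), Ctrl-LPS (n = 4), GW-PBS (n = 4), GW-LPS (n = 3, library numbers 2 to 4), GW-CBD-PBS (n = 3, numbers 2 to 4) and GW-CBD-LPS (n = 4). CBD was thus given to GW mice alone among these libraries. Whether a library stands for a single mouse is not in the labels, and the spread between libraries on which the p-values rest may be technical.

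NF-kB is a family of dimeric transcription factors. In resting cells the dimers are held in the cytoplasm by IkB proteins; signals from Toll-like receptors or TNF receptors activate a kinase complex that marks IkB for destruction, and the freed dimers enter the nucleus. Among the genes they switch on are Tnf itself and several of their own inhibitors, so that the response limits itself. In microglia LPS is sensed through Toll-like receptor 4, and TNF is one of the cytokines released. RelA, c-Rel and RelB carry transactivation domains, while Nfkb1 and Nfkb2 encode the precursors p105 and p100, from which p50 and p52 are made. IkBalpha, from Nfkbia, is the inhibitor that is rebuilt after each activation. Bcl-3 and IkBzeta, from Bcl3 and Nfkbiz, are nuclear IkB proteins that bind p50 or p52 on DNA and can raise or lower transcription. A20, from Tnfaip3, edits the ubiquitin chains that carry the signal from the receptors.

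Stretches of 250 bp upstream of a RefSeq start site (GRCm38.p6) were found by symbol for 7 of the 10 members, and 4 are shown: those of the 3 members that rose after LPS in Ctrl mice (Tnf, Nfkbia and Bcl3) and that of Rel, which fell. Capitals mark matches to the kappaB consensus, the DNA element that NF-kB dimers bind, searched on both strands with overlapping matches joined. The consensus was present in 3.9% of the 32851 mouse windows of this length (1281 windows).
Tnf, chr17:35202008-35202257, minus strand: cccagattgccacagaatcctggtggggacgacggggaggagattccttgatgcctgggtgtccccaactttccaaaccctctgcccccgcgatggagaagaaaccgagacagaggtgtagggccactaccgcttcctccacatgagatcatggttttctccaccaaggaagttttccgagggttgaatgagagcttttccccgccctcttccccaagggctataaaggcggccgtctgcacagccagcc
Nfkbia, chr12:55492648-55492897, minus strand: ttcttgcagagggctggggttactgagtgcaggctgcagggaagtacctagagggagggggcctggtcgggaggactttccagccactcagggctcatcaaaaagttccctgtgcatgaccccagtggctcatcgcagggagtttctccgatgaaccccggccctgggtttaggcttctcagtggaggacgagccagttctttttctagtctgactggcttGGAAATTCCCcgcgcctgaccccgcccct
Bcl3, chr7:19822756-19823005, minus strand: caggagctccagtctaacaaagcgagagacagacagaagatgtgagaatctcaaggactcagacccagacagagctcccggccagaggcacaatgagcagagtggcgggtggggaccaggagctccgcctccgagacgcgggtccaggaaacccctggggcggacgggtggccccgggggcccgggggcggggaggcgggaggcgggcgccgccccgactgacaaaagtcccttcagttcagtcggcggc
Rel, chr11:23770970-23771219, minus strand: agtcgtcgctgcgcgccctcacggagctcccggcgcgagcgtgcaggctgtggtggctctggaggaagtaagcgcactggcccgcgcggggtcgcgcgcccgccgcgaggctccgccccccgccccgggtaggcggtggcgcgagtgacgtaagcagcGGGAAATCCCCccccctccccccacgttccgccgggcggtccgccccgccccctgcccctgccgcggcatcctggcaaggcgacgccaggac
The Nfkbia window held 1 match, 29 bases upstream of its start site, and the Rel window held 2 overlapping ones, 92 and 91 bases upstream. The Tnf and Bcl3 windows held none, which says only that these letters are not in these windows. Windows of Nfkb2 and Tnfaip3 held matches too, and that of Rela did not.

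Levels are given as CPM, read counts scaled to library size with TMM factors, and levels of different genes are compared per kilobase of merged exon. Averaged over the 22 libraries, Nfkbia stood highest at 351 CPM per kb, followed by Rela at 73.3, Tnf at 46.9, Tnfaip3 at 19.3, Nfkbiz at 16.2, Bcl3 at 16.1 and Nfkb1 at 11.5. Relb at 9.72, Nfkb2 near it at 9.52 and Rel at 3.73 CPM per kb stood lowest, and the lowest count of any member in a library was 321 (Bcl3). The span from the lowest to the highest library was 15.7-fold for Bcl3, 8.998-fold for Tnf and 6.85-fold for Nfkbia, and 1.52-fold for Rela.

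The 7 microglial markers summed to between 20023 and 44820 CPM per library, with lower sums in Ctrl-LPS (20023 to 29615 CPM) than in Ctrl-PBS (33859 to 44820 CPM), and 5 of the 7 fell with LPS in Ctrl mice and 4 in GW mice. In bulk RNA, fewer cells of a type and less RNA per cell cannot be told apart. The 10 neutrophil markers summed to 25425 CPM in replicate 3 of Ctrl-PBS, 2209 CPM in replicate 1 of Ctrl-LPS and 1554 CPM in replicate 1 of GW-PBS, against 1.30 to 319 CPM in the other 19 libraries, and Elane and Mpo were each at 0 in 11 libraries. Without these 3 libraries edgeR called 5 members for LPS in Ctrl mice, 4 for LPS in GW mice, 1 for CBD with LPS and 0 in the other comparisons, the same counts as with them except in GW mice (3, with Rel added). Monocyte markers reached 268 CPM in 1 library (median 11.2 CPM) and lymphocyte, neuron and endothelial markers at most 59.5 CPM in any. Astrocyte markers summed to 121 to 257 CPM and oligodendrocyte markers to 116 to 434 CPM over the 22 libraries. Erythroid markers summed to 280 to 1335 CPM in Ctrl-PBS and 73.3 to 376 CPM in Ctrl-LPS, and to 259 to 1568 CPM in GW-PBS and 65.8 to 137 CPM in GW-LPS. Border macrophage markers summed to 99.4 to 137 CPM in GW-PBS, 132 to 244 CPM in GW-LPS and 106 to 157 CPM in GW-CBD-LPS, and to 133 to 176 CPM in Ctrl-PBS and 103 to 164 CPM in Ctrl-LPS. Of their 4 genes edgeR called Lyve1 higher with LPS in Ctrl mice (1.03 ± 0.32) and Lyve1 (1.42 ± 0.34) and Cd163 (1.68 ± 0.34) in GW mice. Lower with LPS in Ctrl mice were 2 of 10 neutrophil, 1 of 4 monocyte, 1 of 4 endothelial (Pecam1) and 3 of 5 erythroid markers. The neutrophil calls were Elane (112 ± 223 CPM with PBS, 0.16 CPM with LPS) and Camp (342 ± 680 and 1.39 CPM). Among the Ctrl-PBS libraries neutrophil markers were raised in replicate 3 alone. In GW mice 2 of 4 endothelial (Flt1 and Pecam1) and 5 of 5 erythroid markers were lower. So were 1 of 4 oligodendrocyte (Mog, 3.42 to 1.04 CPM) and 1 of 4 neuron markers (Rbfox3, 0.69 to 0.17 CPM), both at low levels. In GW-CBD mice edgeR called 0 of the tested marker genes with LPS, where it called 0.417% of all genes. The part of these markers in the results was not tested.

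**Figure D1:**
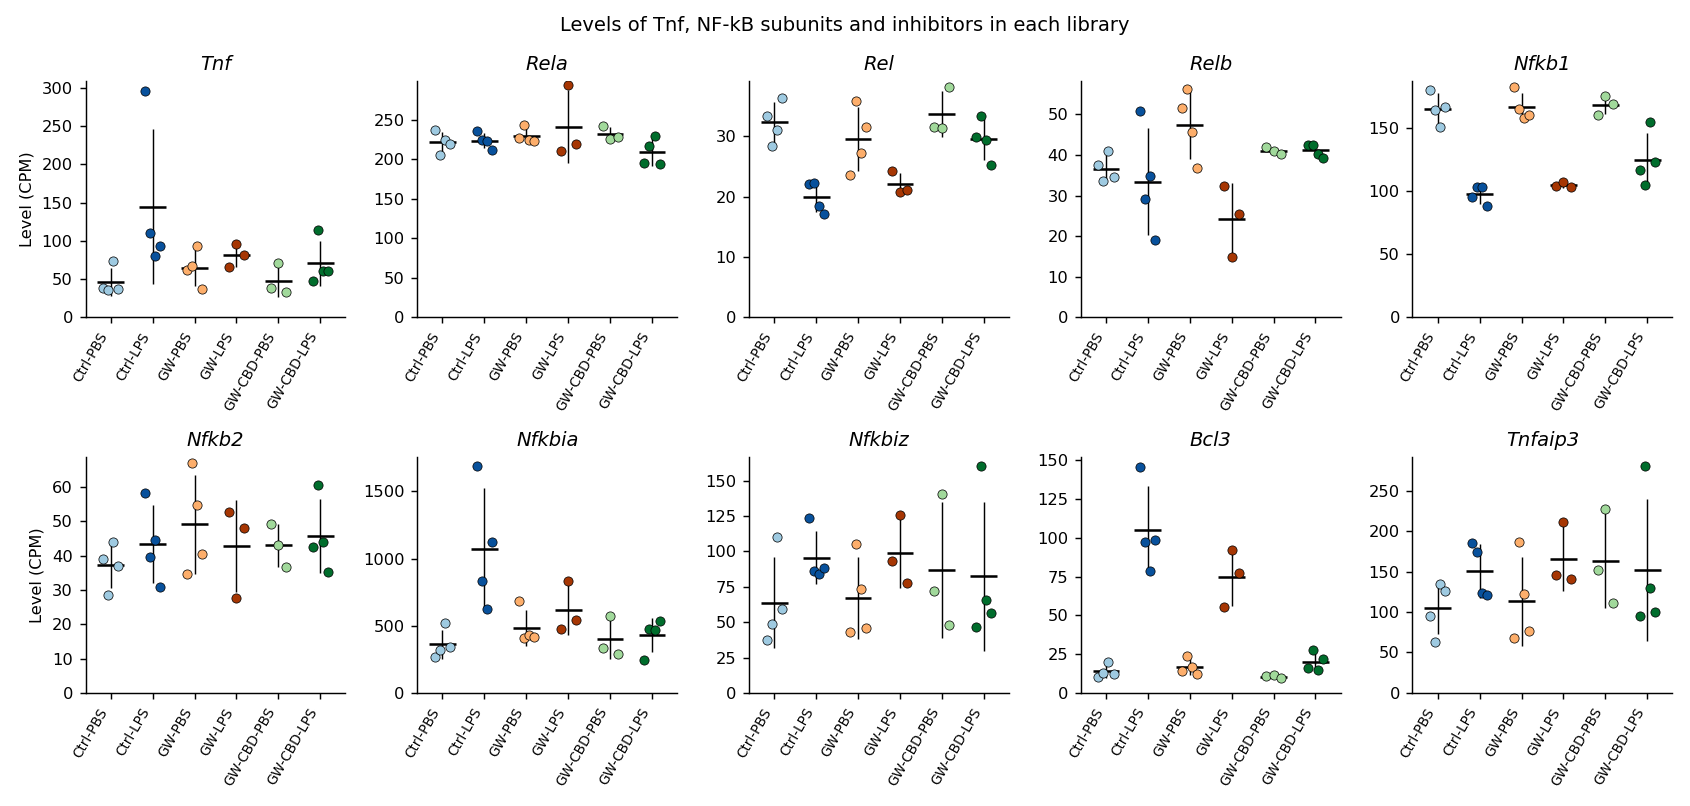
Level (CPM, linear axis from 0) of each member in each of the 22 libraries, by group; points are libraries, the horizontal bar is the group mean and the vertical line ± 1 SD. Bcl3 stood at 55.1 CPM or more in every Ctrl-LPS and GW-LPS library and at 27.4 CPM or less in every other library.

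After LPS, Ctrl microglia held more RNA of Tnf, Nfkbia and Bcl3 and less of Nfkb1 and Rel. In GW mice Bcl3 rose and Nfkb1 fell as well, Relb fell, and Tnf and Nfkbia did not pass the test. In GW mice that had received CBD no member passed. In the edgeR quasi-likelihood test with Benjamini-Hochberg adjustment over all genes, 5 of the 10 members changed in Ctrl mice (3 up, 2 down), where 20.4% of all genes did (10.8% up, 9.62% down). These 5 were also the members whose PBS and LPS libraries did not overlap, as for 23% of all genes. In GW mice 3 members changed (1 up, 2 down), against 9.53% of all genes (4.45% up, 5.07% down), and again these were the members without overlap (19.6% of all genes). In GW-CBD mice edgeR called 0 members, against 0.417% of all genes, and 2 members had an unadjusted p under 0.05 (11% of all genes) and no overlap (14.2%). DESeq2 called 2 members (344 of all 16554 genes) and limma voom 3 (3779). The median log2 fold change of the members was 0.38, 0.20 and -0.04 in the 3 arms, beside -0.02, -0.04 and 0.00 over all genes.

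Tnf encodes the cytokine TNF, made as a membrane protein and shed from it. It stood at 38.1, 36.2, 73.7 and 37.2 CPM in replicates 1 to 4 of Ctrl-PBS and at 296, 111, 80.6 and 92.7 CPM in those of Ctrl-LPS. The groups did not overlap, and replicate 1 of Ctrl-LPS, which also carried neutrophil markers, was the highest of all libraries. The mean was 46.3 ± 18.3 CPM with PBS and 145 ± 101 CPM with LPS (SD, n = 4 each). Tnf rose by 1.65 ± 0.40 on the log2 scale (SE; edgeR adjusted p = 0.0056). Without that library the log2 fold change was 1.03 and the edgeR adjusted p 0.044, and it was 1.33 when the 3 neutrophil-marked libraries were left out.

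In GW-PBS the Tnf levels were 62.1, 66.4, 92.9 and 36.5 CPM, and in GW-LPS 66.2, 96.2 and 80.8 CPM. In GW-CBD-PBS they were 38.4, 71.2 and 32.9 CPM, and in GW-CBD-LPS 47.0, 114, 60.4 and 60.2 CPM. PBS and LPS libraries overlapped in both of these arms. The log2 fold change with LPS was 0.33 in GW mice (95% interval -0.54 to 1.20) and 0.57 in GW-CBD mice (-0.32 to 1.45), and both intervals include 0. By mean level the groups ran Ctrl-LPS, GW-LPS (81.0 CPM), GW-CBD-LPS (70.4 CPM), GW-PBS (64.5 CPM), GW-CBD-PBS (47.5 CPM) and Ctrl-PBS. No neighbours in this order differed by more than the larger of their SDs, which is the measure of spread used for such orders here.

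Nfkb1, the gene of the p105 precursor and of p50, lies on chromosome 3 (135584655 to 135691547, minus strand, GRCm38). In Ctrl mice it stood at 181, 164, 151 and 167 CPM with PBS and at 95.5, 104, 103 and 88.0 CPM with LPS. In GW mice it stood at 183, 166, 158 and 161 CPM with PBS and at 105, 108 and 103 CPM with LPS. Every LPS library of these arms lay below every PBS library, and the 3 GW-LPS libraries were close together. Nfkb1 fell by 0.76 ± 0.11 on the log2 scale in Ctrl mice (edgeR adjusted p = 4.3e-05) and by 0.67 ± 0.12 in GW mice (adjusted p = 0.0013), and both calls held with each library left out.

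In GW-CBD mice Nfkb1 stood at 161, 176 and 169 CPM with PBS and at 117, 105, 155 and 123 CPM with LPS. All LPS libraries were below all PBS libraries here too, replicate 3 with 155 CPM by the least. Such separation was met by 5.79% of all genes in this direction and arm. The log2 fold change of -0.43 ± 0.11 did not pass in edgeR (adjusted p = 0.113), passed in DESeq2 (0.017) and limma voom (6.1e-05), and passed in edgeR without GW-CBD-LPS replicate 3 (0.0097). Nfkb1 means ran 169, 167 and 166 CPM in GW-CBD-PBS, GW-PBS and Ctrl-PBS, then 125 CPM in GW-CBD-LPS, 105 CPM in GW-LPS and 97.6 CPM in Ctrl-LPS. Of the neighbours in this order, Ctrl-PBS and GW-CBD-LPS differed beyond their SDs, as did, by a small margin, GW-LPS and Ctrl-LPS, though single libraries of both pairs overlapped.

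Rel encodes c-Rel, a subunit of lymphoid and myeloid cells. Its levels in Ctrl mice were 33.4, 28.5, 31.0 and 36.4 CPM with PBS and 22.1, 22.3, 18.5 and 17.2 CPM with LPS, with no overlap. In GW mice they were 23.5, 35.8, 27.3 and 31.6 CPM with PBS and 24.3, 20.8 and 21.2 CPM with LPS, and replicate 1 of GW-PBS lay among the LPS libraries. Rel fell by 0.69 ± 0.14 on the log2 scale in Ctrl mice (edgeR adjusted p = 0.0013), a call that held with each library left out in turn. In GW mice the log2 fold change was -0.42 ± 0.15 (edgeR adjusted p = 0.080); it passed in DESeq2 (0.040), in limma voom (0.017) and in edgeR without GW-PBS replicate 1 (0.033), 1 of the 3 libraries with raised neutrophil markers. In GW-CBD mice Rel stood at 31.4 to 38.1 CPM with PBS and 25.2 to 33.3 CPM with LPS, a log2 fold change of -0.19 (95% interval -0.50 to 0.12).

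Relb encodes RelB, the partner of p52 in the alternative NF-kB pathway. In GW mice it stood at 51.6, 56.2, 45.6 and 36.7 CPM with PBS and at 32.2, 14.7 and 25.5 CPM with LPS. All GW-LPS libraries lay below all GW-PBS libraries, and replicate 3 was the lowest of the 22 libraries. Relb fell by 0.97 ± 0.25 on the log2 scale (edgeR adjusted p = 0.019). That call was lost without GW-LPS replicate 3 (log2 fold change -0.72, adjusted p = 0.096), without GW-LPS replicate 4 (-1.02, 0.053) and in a fit of these 2 groups alone (-0.96, 0.080).

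In Ctrl mice Relb stood at 37.5, 33.5, 41.0 and 34.7 CPM with PBS and at 50.8, 29.2, 34.7 and 19.0 CPM with LPS. The Ctrl-LPS libraries spread on both sides of the PBS libraries, and the log2 fold change was -0.13 (95% interval -0.61 to 0.34). In GW-CBD mice all 7 libraries lay between 39.3 and 42.5 CPM, and the log2 fold change was 0.00 (-0.51 to 0.51). The SD was 1.61 CPM in GW-CBD-LPS (n = 4) against 13.3 CPM in Ctrl-LPS (n = 4) and 8.84 CPM in GW-LPS (n = 3).

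Rela, the gene of the transactivating subunit p65, had the smallest span of the 10 members. Group means ran from 209 ± 17.4 CPM (GW-CBD-LPS, n = 4) to 241 ± 45.7 CPM (GW-LPS, n = 3), and no neighbours in the order of the groups differed beyond their SDs. Replicate 3 of GW-LPS, at 294 CPM, stood above the other 2 libraries of its group (211 and 219 CPM). The log2 fold change with LPS was 0.01 in Ctrl mice (95% interval -0.20 to 0.22), 0.07 in GW mice (-0.16 to 0.30) and -0.15 in GW-CBD mice (-0.38 to 0.08). The last of these was called by limma voom with quality weights, at -0.21 (adjusted p = 0.022).

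Nfkb2, the gene of p100 and p52, was at 27.7 to 66.9 CPM over the 22 libraries, with group means from 37.2 ± 6.46 CPM (Ctrl-PBS, n = 4) to 49.2 ± 14.5 CPM (GW-PBS, n = 4) that did not differ beyond their SDs. Its log2 fold changes with LPS were 0.22, -0.20 and 0.09 in Ctrl, GW and GW-CBD mice, and each 95% interval includes 0. Nfkb2 shares 299 exon bases with Psd and 531 with AC114539.1 on the opposite strand. Whether counting used strand is not stated in the sources used here, and its share of those reads is uncertain.

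Bcl3, the nuclear IkB family regulator, moved most of all members. It lies on chromosome 7 (19808462 to 19822770, minus strand, GRCm38), and 161 of its exon bases are shared with the antisense gene Gm16175. In Ctrl mice it stood at 10.6, 12.96, 19.7 and 12.02 CPM with PBS and at 145, 97.4, 78.8 and 98.8 CPM with LPS. In GW mice it stood at 14.0, 24.1, 17.0 and 11.9 CPM with PBS and at 55.1, 92.2 and 77.3 CPM with LPS. The lowest LPS library lay above the highest PBS library in both arms, with replicate 2 of GW-LPS the lowest of the LPS libraries. Bcl3 rose 7.61-fold in mean in Ctrl mice (log2 fold change 2.93 ± 0.27, edgeR adjusted p = 4.8e-07) and 4.47-fold in GW mice (2.16 ± 0.27, adjusted p = 8.2e-05), and both calls held with each library left out.

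In GW-CBD mice Bcl3 stood at 10.96, 11.3 and 9.29 CPM with PBS and at 16.3, 27.4, 14.6 and 21.8 CPM with LPS. Each LPS library was above each PBS library, as for 8.37% of all genes in this direction and arm, but below every LPS library of the other arms. The log2 fold change of 0.93 ± 0.28 had an edgeR adjusted p of 0.184, and passed in DESeq2 (0.035) and limma voom (0.0068). In the order of means, Ctrl-LPS (105 ± 28.4 CPM) differed beyond its SD from GW-LPS (74.9 ± 18.6 CPM), though their libraries overlapped, and GW-LPS from GW-CBD-LPS (20.03 ± 5.81 CPM) without overlap. The neighbours below, GW-PBS (16.8 CPM), Ctrl-PBS (13.8 CPM) and GW-CBD-PBS (10.5 CPM), did not.

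**Figure D2:**
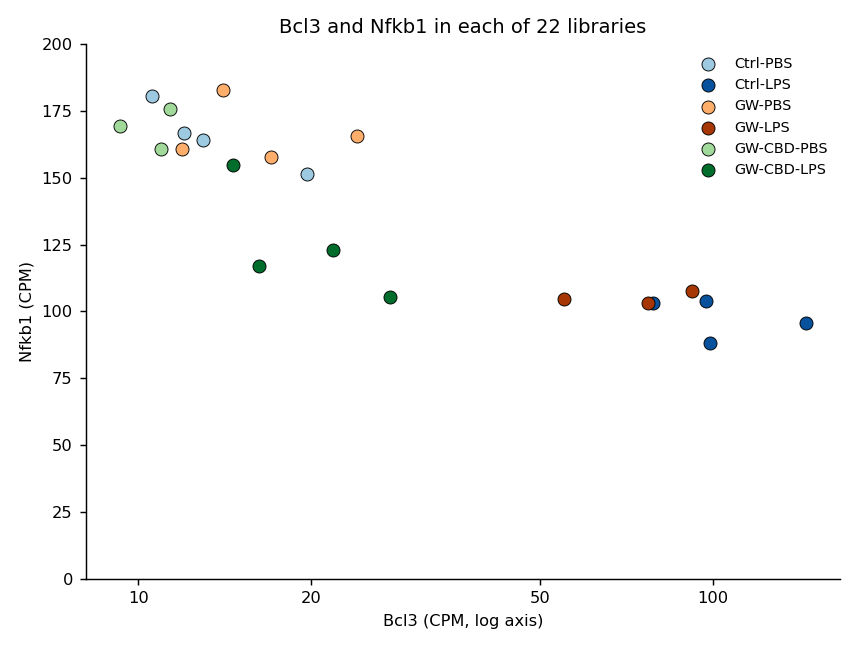
Bcl3 (CPM, log axis) against Nfkb1 (CPM, linear axis from 0) in each of the 22 libraries, coloured by group. PBS libraries of all arms lie at 9.29 to 24.1 CPM of Bcl3 and 151 to 183 CPM of Nfkb1, Ctrl-LPS and GW-LPS libraries at 55.1 to 145 CPM and 88.0 to 108 CPM, and GW-CBD-LPS libraries at 14.6 to 27.4 CPM and 105 to 155 CPM.

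Nfkbia encodes IkBalpha, the classical inhibitor and itself an NF-kB target. It stood at 265, 318, 520 and 343 CPM in Ctrl-PBS and at 1686, 834, 623 and 1127 CPM in Ctrl-LPS. The groups did not overlap, with replicate 1 highest among the LPS libraries and replicate 3 highest among the PBS libraries. The mean rose from 361 ± 110 to 1068 ± 461 CPM (SD, n = 4 each; log2 fold change 1.56 ± 0.31, edgeR adjusted p = 0.0013), and the call held with each library left out and with the 3 neutrophil-marked libraries left out together (1.46).

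In GW mice Nfkbia stood at 681, 406, 434 and 413 CPM with PBS and at 479, 835 and 542 CPM with LPS. In GW-CBD mice it stood at 338, 575 and 293 CPM with PBS and at 246, 473, 466 and 535 CPM with LPS. PBS and LPS libraries overlapped in both arms, and replicate 1 of GW-PBS was higher than 2 of the 3 GW-LPS libraries. The log2 fold changes were 0.36 (95% interval -0.33 to 1.04) and 0.10 (-0.59 to 0.79).

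Nfkbiz and Tnfaip3 did not pass in any arm. Nfkbiz, the gene of IkBzeta, ran from 37.3 to 110 CPM in Ctrl-PBS and from 84.2 to 124 CPM in Ctrl-LPS, and its log2 fold changes with LPS were 0.58, 0.56 and -0.08 in Ctrl, GW and GW-CBD mice, with SE between 0.40 and 0.43. Tnfaip3, the gene of A20, ran from 63.4 to 134 CPM in Ctrl-PBS and from 121 to 185 CPM in Ctrl-LPS, and its log2 fold changes were 0.53, 0.55 and -0.11, with SE between 0.35 and 0.38. In both genes single libraries spread further than groups: in GW-CBD-LPS, replicate 2 held 160 CPM of Nfkbiz and 281 CPM of Tnfaip3, while the other 3 libraries held 46.8 to 65.7 and 95.4 to 130 CPM.

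**Figure D3:**
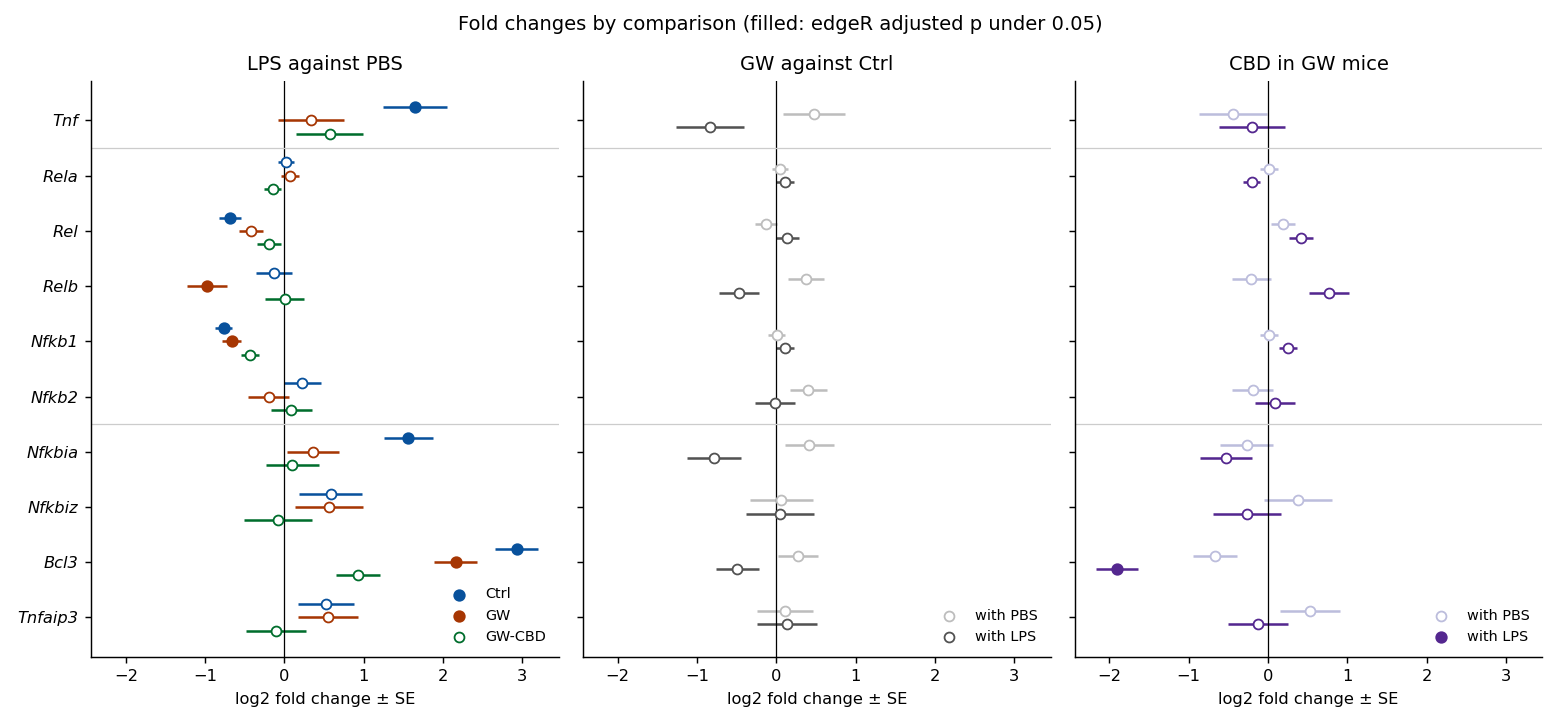
Log2 fold change (point) with its SE (line) of each member for LPS against PBS in the 3 arms, for GW against Ctrl mice, and for CBD in GW mice; filled points passed the edgeR adjusted p of 0.05, and grey lines part the ligand, subunits and inhibitors. Filled points are 5 members in Ctrl and 3 in GW mice for LPS, and Bcl3 (-1.90) for CBD with LPS.

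Whether the early chemical exposure alone left a trace was asked in mice given PBS. GW-PBS and Ctrl-PBS libraries overlapped for every member, where 2.07% of all genes did not overlap. EdgeR called 0 members and 0% of all genes, 0 members had an unadjusted p under 0.05 (3.75% of all genes), and DESeq2 and limma voom called 0 members. Log2 fold changes of 9 of the 10 members were positive with a median of 0.20, beside 0.02 over all genes, and the values furthest from 0 were those of Tnf (0.48, 95% interval -0.33 to 1.29) and Nfkbia (0.42, -0.22 to 1.06). The interval of Rela (-0.16 to 0.26) and that of Nfkb1 (-0.21 to 0.23) were the narrowest.

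Between GW-LPS and Ctrl-LPS edgeR called 0 members and 0% of all genes, and DESeq2 and limma voom called 0 members. Groups overlapped for every member, where 12.5% of all genes did not overlap. Nfkbia alone had an unadjusted p under 0.05, as had 13.7% of all genes (log2 fold change -0.79 ± 0.34, edgeR adjusted p = 0.341), from means of 1068 ± 461 to 619 ± 190 CPM. Tnf was at -0.84 (95% interval -1.73 to 0.05), Bcl3 at -0.49 (-1.05 to 0.07) and Relb at -0.47 (-0.99 to 0.05).

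Whether the response to LPS itself differed between GW and Ctrl mice was tested as an interaction in the same fit. EdgeR called 0 members and 0% of all genes, and DESeq2 and limma voom called 0 members, while 4 members had an unadjusted edgeR p under 0.05, as had 12.7% of all genes. The log2 difference between the responses was -1.32 ± 0.58 for Tnf (edgeR unadjusted p = 0.033, adjusted 0.366), -1.21 ± 0.45 for Nfkbia (adjusted 0.353), -0.84 ± 0.34 for Relb (adjusted 0.361) and -0.77 ± 0.37 for Bcl3 (adjusted 0.393). Tnf and Nfkbia thus passed in Ctrl mice and not in GW mice, and the difference between the arms did not pass. For Nfkb1 the responses differed by 0.10 (95% interval -0.23 to 0.42).

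CBD in GW mice given PBS gave 0 members called by edgeR, DESeq2 or limma voom, and 0% of all genes in edgeR. Bcl3 alone had an unadjusted p under 0.05, as had 9.48% of all genes: it stood at 11.9 to 24.1 CPM in GW-PBS and at 9.29 to 11.3 CPM in GW-CBD-PBS, without overlap, as for 5% of all genes in this direction (log2 fold change -0.67 ± 0.28, edgeR adjusted p = 0.524). The other 9 members overlapped, among them Tnfaip3 (0.53, 95% interval -0.26 to 1.32) and Tnf (-0.44, -1.32 to 0.44).

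After LPS, GW mice that had received CBD held less Bcl3 RNA than GW mice that had not. The GW-LPS libraries stood at 55.1, 92.2 and 77.3 CPM and the GW-CBD-LPS libraries at 16.3, 27.4, 14.6 and 21.8 CPM, so the highest CBD library was below the lowest without CBD, as for 6.34% of all genes. EdgeR called this 1 member, and 2.31% of all genes (1.06% higher, 1.24% lower); 4 members, against 14.4% of all genes, had an unadjusted p under 0.05. Bcl3 was lower by 1.90 ± 0.27 on the log2 scale (log2 fold change -1.90, edgeR adjusted p = 0.0014), and the call held with each of the 7 libraries left out. In a fit of these 2 groups alone, which called 0 of 14495 genes, the log2 fold change was also -1.90 with an adjusted p of 0.056.

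Among the subunit genes edgeR called 0 of 5. Relb was at 14.7 to 32.2 CPM in GW-LPS and 39.3 to 42.5 CPM in GW-CBD-LPS, and Rel at 20.8 to 24.3 and 25.2 to 33.3 CPM. For these 2 genes alone among the subunits every library with CBD was above every library without, as for 6.51% of all genes, while Rela was lower in mean (209 against 241 CPM) and Nfkb2 near level (45.7 against 42.9 CPM), both with overlap. Relb (log2 fold change 0.77 ± 0.25, edgeR adjusted p = 0.120) was called by DESeq2 (0.036), by limma voom (0.0022) and in edgeR without GW-LPS replicate 2 (0.043). Rel (0.42 ± 0.15, edgeR adjusted p = 0.165) was called by limma voom (0.0038), as was Nfkbia, which was lower (-0.52 ± 0.33 in edgeR, adjusted p = 0.516; -0.92 in limma voom, 0.0069). Nfkb1 had an unadjusted p under 0.05 (0.25 ± 0.12, edgeR adjusted p = 0.321), whereas Tnf (-0.20, 95% interval -1.07 to 0.67) and Tnfaip3 (-0.13, -0.92 to 0.66) had wide intervals around 0.

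The interaction of CBD and LPS asked whether the LPS response differed between GW mice with and without CBD. EdgeR called 0 members and 0.0181% of all genes, and 2 members had an unadjusted edgeR p under 0.05, against 15.3% of all genes. DESeq2 called 0 members (381 of all 16554 genes) and limma voom 2 (2287). The log2 difference between the responses, with CBD minus without, was -1.23 ± 0.38 for Bcl3 (edgeR adjusted p = 0.175; limma voom -1.36, 0.0048). For Relb it was 0.98 ± 0.35 (edgeR adjusted p = 0.219; limma voom 0.83, 0.016). The comparisons of LPS in GW mice, of GW with Ctrl mice after LPS and of CBD after LPS all use the 3 GW-LPS libraries, so their values are not independent of each other.

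The rest of the pathway was read from 6 lists of 76 genes, of which 75 were tested and Nos2 was not. After LPS in Ctrl mice 16 rose and 2 fell in edgeR, with a median log2 fold change of 0.23. These 18 of 75 are a share near the 20.4% of all genes called (10.8% up, 9.62% down). Calls of 8 of these 18 (Myd88, Tradd, Tnip2, Sod2, Ccl5, Ier3, Nfkbie and Map3k14) held with each library left out, and those of 10 were lost without at least 1. Myd88, the adaptor of Toll-like and interleukin-1 receptors, rose from 131 ± 9.27 to 259 ± 17.4 CPM (SD, n = 4 each; log2 fold change 0.98 ± 0.09) and Tradd, an adaptor of TNF receptor signalling, by 0.57 ± 0.12, which with Irak4 made 3 of the 13 adaptor genes. Of the 7 receptor genes 2 rose, Ltbr and Il1r1, while the TNF receptor genes Tnfrsf1a (0.24) and Tnfrsf1b (-0.20) and Tlr4 (-0.23) did not pass.

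Among 13 other inhibitors in Ctrl mice Tnip2, a partner of A20, rose by 0.98 ± 0.16 on the log2 scale and Nfkbie, the gene of IkBepsilon, fell by 0.60 ± 0.12. Map3k14, the NIK kinase of the alternative pathway, fell by 0.64 ± 0.17, and 2 of the 11 kinase and ubiquitin assembly genes rose, Rnf31 and Sharpin, components of the linear ubiquitin complex. Of 7 genes of Tnf RNA decay and shedding 2 rose, Zfp36 (2037 ± 498 to 3046 ± 390 CPM), whose protein binds and destabilises Tnf RNA, and Rhbdf2 (0.80 ± 0.27), which escorts the TNF-shedding protease. Rnf31, Sharpin, Ltbr, Il1r1, Zfp36 and Rhbdf2 are among the genes whose call was lost without at least 1 library.

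Of 24 textbook targets tested in Ctrl mice 6 rose and none fell in edgeR, where 10.8% of all genes rose and 9.62% fell (20.4% either way). Their median was 0.60 beside -0.02 over all genes. Sod2, a mitochondrial superoxide dismutase, rose by 1.53 ± 0.28, the chemokine gene Ccl5 by 1.80 ± 0.39 and the early response gene Ier3 by 1.81 ± 0.40. Without Ctrl-LPS replicate 1 these were 0.96, 1.16 and 1.24, all still called. The other 3 called targets, Ccl2, Il1a and Cxcl1, were not called without that library.

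In GW mice 5 pathway genes rose and 3 fell after LPS, 8 of 75 and near the 9.53% of all genes, with a median of 0.09 beside -0.04 over all genes. Myd88 rose from 128 ± 7.90 (n = 4) to 208 ± 17.97 CPM (n = 3; log2 fold change 0.70 ± 0.09), the kinase gene Irak1 rose by 0.71 ± 0.15 and Nfkbie fell by 0.64 ± 0.13; these 3 calls held with each library left out. Those of Irak4, Chuk, Tnip2, Tnip3 and Cd83 were lost without at least 1 library. In all the count fell to 4 without GW-PBS replicate 1 or GW-LPS replicate 3, and to 5 without GW-LPS replicate 2. Of 24 textbook targets Cd83 alone was called, and it fell (-0.69 ± 0.21); the median was -0.06. In GW-CBD mice edgeR called 0 of the 75 after LPS, against 0.417% of all genes, and DESeq2 called 0 (344 of all 16554 genes). Limma voom called 10 (3779 of all genes), and 2 had an unadjusted edgeR p under 0.05, against 11% of all genes.

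**Figure D4:**
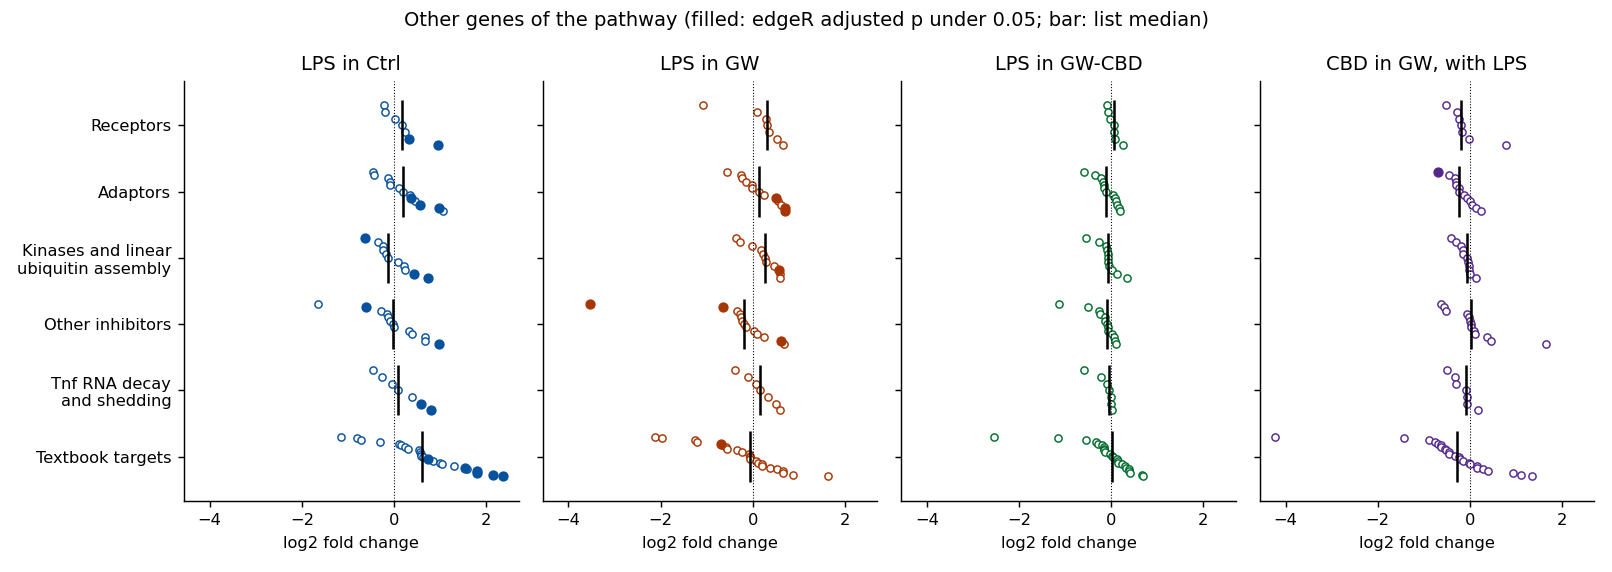
Log2 fold change of each tested gene of the 6 pathway lists for LPS in the 3 arms and for CBD with LPS; points are genes, filled where edgeR adjusted p is under 0.05, and the vertical bar is the list median. The textbook targets have a median of 0.60 in Ctrl, -0.06 in GW and 0.03 in GW-CBD mice. For the interaction of GW and LPS edgeR called 0 of the 24 tested targets and 0% of all genes.

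With CBD after LPS, Myd88 was the 1 pathway gene called, lower at 128 ± 3.85 CPM (n = 4) than the 208 ± 17.97 CPM of GW-LPS (n = 3; log2 fold change -0.70 ± 0.09, edgeR adjusted p = 0.0011). Its level in the PBS groups was 131 CPM in Ctrl, 128 CPM in GW and 125 CPM in GW-CBD mice. The call held with each library left out and was lost in a fit of these 2 groups alone (0.058). Beside it 2 of the 7 microglial markers were called higher, P2ry12 (1.15 ± 0.21) and Siglech (0.90 ± 0.16), against 1.06% of all genes. Both had fallen with LPS in GW mice (-1.66 ± 0.21 and -1.08 ± 0.16). Of the 4 border macrophage markers Cd163 alone was called, and it was lower (-1.31 ± 0.34), against 1.24% of all genes. The part of these markers in the Myd88 result was not tested. EdgeR called 0 of the 75 for GW against Ctrl with PBS and for CBD with PBS, and 0% of all genes in both. An unadjusted p under 0.05 was met by 3 and 4 of the 75 (3.75% and 9.48% of all genes). Neither DESeq2 nor limma voom called any of the 75 there. For GW against Ctrl with LPS edgeR called 0 (0% of all genes), with 19 at an unadjusted p under 0.05 (13.7% of all genes). DESeq2 called 3 (147 of all 16554 genes) and limma voom 4 (324). EdgeR also called 0 for the interaction of LPS with GW (0% of all genes), with 13 unadjusted (12.7%). DESeq2 called 0 there and limma voom 1 (111 of all genes). For that with CBD edgeR called 0 (0.0181% of all genes), with 7 unadjusted (15.3%), DESeq2 1 (381) and limma voom 6 (2287).

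Within each group, 1 library was the highest for most members. How many of all genes were highest in that library was not counted, so this is not shown to be a trait of the members. Replicate 3 of Ctrl-PBS was the highest of its group for 7 of the 10 members, replicate 1 of Ctrl-LPS for 8, replicate 2 of GW-PBS for 7, replicate 3 of GW-LPS for 7, replicate 3 of GW-CBD-PBS for 6 and replicate 2 of GW-CBD-LPS for 6. In 5 of these 6 libraries the sum of 12 immediate early genes (Fos, Jun, Egr1, Ier2 and others, which many stimuli induce quickly) was also the highest of the group. It was 15481 CPM in GW-LPS replicate 3 against 7739 and 8658 CPM in the other libraries of that group, and in Ctrl-LPS it was highest in replicate 2 (10632 CPM). The neutrophil marker sum was highest in the same library in 5 of the 6 groups as well. The part of either in the members' levels was not tested.

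**Figure D5:**
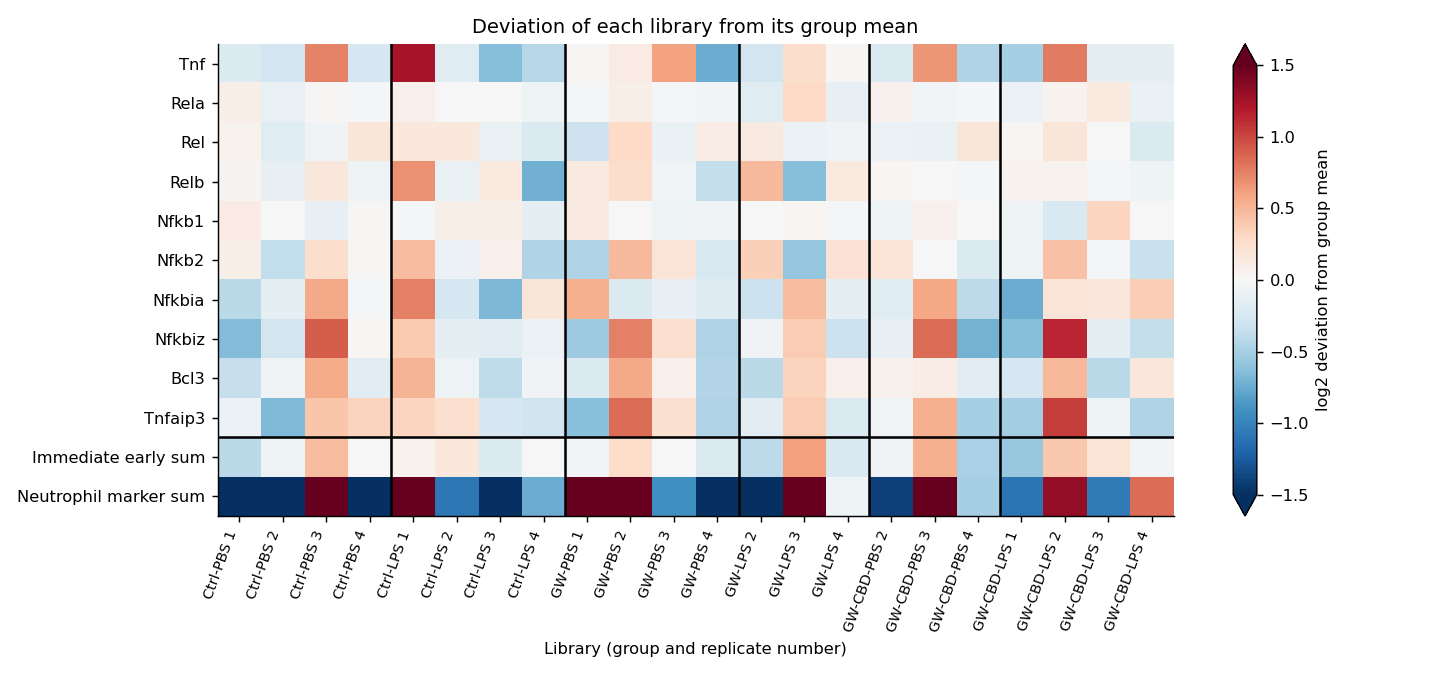
Log2 deviation of each library from its group mean for the 10 members, the immediate early gene sum and the neutrophil marker sum; red is above and blue below the group mean, with colours held at ± 1.5. Nfkbiz and Tnfaip3 follow the same libraries, and the Nfkb1 and Rela rows are pale.

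Of the 12 immediate early genes edgeR called 2 with LPS in Ctrl mice and 1 in GW mice, shares near the 20.4% and 9.53% of all genes, and 0 in GW-CBD mice. The list medians were 0.17, 0.10 and -0.15. Dusp1, a phosphatase of MAP kinases, rose in Ctrl (1.46 ± 0.35) and GW mice (1.35 ± 0.37), and Ier2 in Ctrl mice (1.13 ± 0.31).

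The genes most like 3 members were listed by the Pearson correlation of log2 CPM over all 22 libraries, among 9203 genes whose mean reached 5 CPM. Predicted genes, genes with clone or accession names and pseudogenes had been left out of these. These values include the difference between LPS and PBS libraries that the genes share and are a description. For Bcl3 they were the niacin receptor gene Hcar2 (0.98), the anaphylatoxin receptor gene C5ar1 (0.97), the scavenger receptor gene Msr1 (0.97), Ptpn1 (0.97) and Cyp4f16 (0.96). For Nfkb1 they were Gimap6 (0.97), Smap2 (0.97), Lrba (0.96), Prkab1 (0.96) and Lrrc39 (0.96). For Tnf they were Ier2 (0.89), Il1b (0.89), Tubb6 (0.89), Ier3 (0.89) and Tnfsf9 (0.88). Of these, Ier2 is in the immediate early list, and Il1b and Ier3 are in the textbook target list.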

How the data were processed

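The authors deposited whole-number read counts per gene for 22 libraries, 1 column per library, each matched to 1 sample by its library name. Per the submitters' processing notes the build is GRCm38 (mm10); the aligner, counter and strand setting were not given in the sources used here. Per the labels' protocols, stranded poly(A) libraries were made from RNA whose integrity number was 8.5 or more and sequenced as 150 bp read pairs. Coordinates, exon lengths and overlaps came from the GENCODE M21 annotation of GRCm38.

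The quasi-likelihood test of edgeR 4.0.16 (R 4.3.3) was run on the counts after filterByExpr by group and TMM scaling, in 1 fit of all 22 libraries with a mean for each of 6 groups. P-values were adjusted by Benjamini-Hochberg over 16554 genes, with a threshold of 0.05 and no fold minimum; the tests were two-sided, and the common biological coefficient of variation was 0.352. CPM of single genes use the TMM factors, marker and immediate early sums use library totals, and log2 CPM a prior count of 2. Alternatives were DESeq2-type size factors (RLE), no filter, DESeq2 1.42.0, limma 3.58.1 voom with quality weights, the compared groups alone, a replicate block and each library left out. A fit without the 3 libraries with raised neutrophil markers was added after seeing the data. Genes named are all members, up to 3 called genes per pathway list and comparison, and, for 3 members, the 5 genes most like each. A further Ccl2, Il1a, Cxcl1 and the genes given without values were named after their values were seen. Tnfrsf1a, Tnfrsf1b and Tlr4, which were not called, were also named outside this rule. The members and gene lists were chosen with earlier results of these data known. The test was also run on simulated counts with the same spread for every gene and no outlying libraries. Its outcome is not given here and lends no support to the calls. No library was a repeat of another of its group (chi-square of 11.7 to 234 per degree of freedom). Figures were drawn with matplotlib.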

Additional observations from a re-analysis of the deposited data

Results flagged for a closer look

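In 5 of the 40 sets of 4 libraries examined (the 10 members in the 4 groups of that size) 1 library stood apart from the other 3 by Dixon's criterion, which chance alone meets in about 1 of 20 sets. Tnf in Ctrl-PBS was at 73.7 CPM in replicate 3 and between 36.2 and 38.1 CPM in the others. Tnf in Ctrl-LPS was at 296 CPM in replicate 1 and between 80.6 and 111 CPM in the others. Nfkbiz in the same group was at 124 CPM in replicate 1 and between 84.2 and 88.6 CPM in the others. Nfkbia in GW-PBS was at 681 CPM in replicate 1 and between 406 and 434 CPM in the others. Nfkbiz in GW-CBD-LPS was at 160 CPM in replicate 2 and between 46.8 and 65.7 CPM in the others. The first 4 of these values lie in the 3 libraries with raised neutrophil markers, and the last does not. The part of these markers in the levels was not tested.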

How the results depend on the processing

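No fold change of a member or pathway gene changed direction while called in any setting run. With RLE size factors, without a filter and with the replicate block the counts of members called were those of the main test. Over 51 same-number pairs the correlation of deviations from group means ran from -0.285 to 0.315 (median 0.01), and 11 were over 0.1. Pairs of different numbers were not compared, so these values cannot decide whether the replicate numbers pair the libraries. With the replicate block 5 members were called for LPS in Ctrl mice, 3 in GW mice, 1 for CBD with LPS and 0 elsewhere.

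For LPS in GW-CBD mice (0 members called in edgeR) DESeq2 called 2 (344 of all 16554 genes) and limma voom 3 (3779). For CBD with LPS (1) DESeq2 called 2 (900 of all genes), limma voom 4 (3512) and the compared groups alone 0. For the CBD-by-LPS interaction (0) limma voom called 2 (2287 of all genes). With each library left out members called ran from 5 to 5 for LPS in Ctrl mice, 2 to 4 in GW mice, 0 to 1 in GW-CBD mice (1 without GW-CBD-LPS replicate 3) and 1 to 2 for CBD with LPS (2 without GW-LPS replicate 2), and stayed at 0 in the other comparisons.

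Of the 75 pathway genes, limma voom called 21 for LPS in GW mice (edgeR 8), 10 in GW-CBD mice and 15 for CBD with LPS (edgeR 1). Over all 16554 genes limma voom called 3809, 3779 and 3512 in these comparisons. It called 4 pathway genes for GW against Ctrl with LPS (324 of all genes). For the interaction of GW and LPS it called 1 (111) and for CBD-by-LPS 6 (2287). DESeq2 called 3 for GW against Ctrl with LPS (147 of all genes), 2 for CBD with LPS (900) and 1 for CBD-by-LPS (381). The compared groups alone gave 5 for LPS in GW mice and 0 for CBD with LPS, where leaving out the 3 libraries with raised neutrophil markers gave 2. With each library left out pathway calls ran from 12 to 19 for LPS in Ctrl mice, 4 to 12 in GW mice, 0 to 2 for GW against Ctrl with LPS (2 without Ctrl-LPS replicate 3), 1 to 2 for CBD with LPS (2 without GW-CBD-LPS replicate 2) and 0 to 1 for CBD-by-LPS (1 without GW-LPS replicate 2 or GW-CBD-LPS replicate 2). Smaller fits test fewer libraries; the cause of the other changes was not tested. With 3 or 4 libraries a group, the 95% intervals of Tnf, Nfkbia, Nfkbiz, Bcl3 and Tnfaip3 span more than 1 on the log2 scale in every comparison. Those of Relb and Nfkb2 do so in some comparisons.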
